A study of Mus musculus with 8 samples.

Results

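Keratins are the intermediate filament proteins of epithelia, and a filament forms when a type I keratin pairs with a type II keratin. Stratifying epithelia exchange the keratins of the basal layer for pairs of the layers above it: Krt1 with Krt10 in the epidermis, and Krt4 with Krt13 in the mucosa of the mouth and oesophagus. Krt17 and Krt6a belong to embryonic surface epithelium, hair follicle and wounded skin, and Krt75 takes its place among hair keratins from the companion layer that lines the inner root sheath. In developing teeth the dental epithelium thickens, buds and builds a stratified core in place of a cornified surface.

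The 8 keratin genes described here were Krt1, Krt10 and Krt77 (epidermal suprabasal), Krt4 and Krt13 (mucosal), and Krt6a, Krt17 and Krt75 (hair companion layer, embryonic surface and stress). They were chosen by name, with earlier results of these data known, and each came with its Ensembl identifier. All 8 were among the 26165 genes of the deposited table. Expression had been measured on 8 arrays in the mandibular molar epithelium of mouse embryos at E13.5, when the tooth germ is at the bud stage. In the 4 conditional knockout (cKO) pools, labelled K14-cre43;Foxi3-floxed and given in the design text as K14-cre43;Foxi3-/floxed, a Cre recombinase under a keratin 14 promoter, active in epithelium, deletes a floxed allele of Foxi3, a forkhead transcription factor gene. The 4 control pools are titled wild type and labelled Foxi3+/floxed, so the groups also differ in a null Foxi3 allele and in the Cre, and these effects cannot be told apart. Each array held the pooled molar epithelia of 5 embryos of the same genotype, freed from the underlying tissue with dispase. In such bulk samples, fewer cells of a type and less RNA per cell cannot be told apart.

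Of these genes, 4 of 8 were lower in the Foxi3 cKO epithelium and none was called higher. Krt75 fell the most, 2.30-fold, followed by Krt10 with 1.63-fold, Krt1 with 1.47-fold and Krt17 with 1.18-fold. Krt4, Krt6a, Krt13 and Krt77 did not pass the test. A gene was called at a limma adjusted p under 0.05, with the Benjamini-Hochberg adjustment made over all 26165 genes. By this rule 1.31% of all genes were called in either direction, 0.619% of all genes lower and 0.688% higher in the cKO. The median difference of the 8 keratins, cKO minus wild type, was −0.16 on the log2 scale, beside −0.018 over all genes, and their median size of difference was 0.35, beside 0.065 over all genes. In 5 of the 8 keratins the arrays of the genotypes did not overlap, with the cKO lower in the 4 called genes and higher in Krt4, while 7.85% of all genes had such separation, 3.71% with the cKO lower and 4.14% with the cKO higher. Because the keratins were chosen with earlier results known, their counts beside the shares of all genes are a description.

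**Figure D1:**
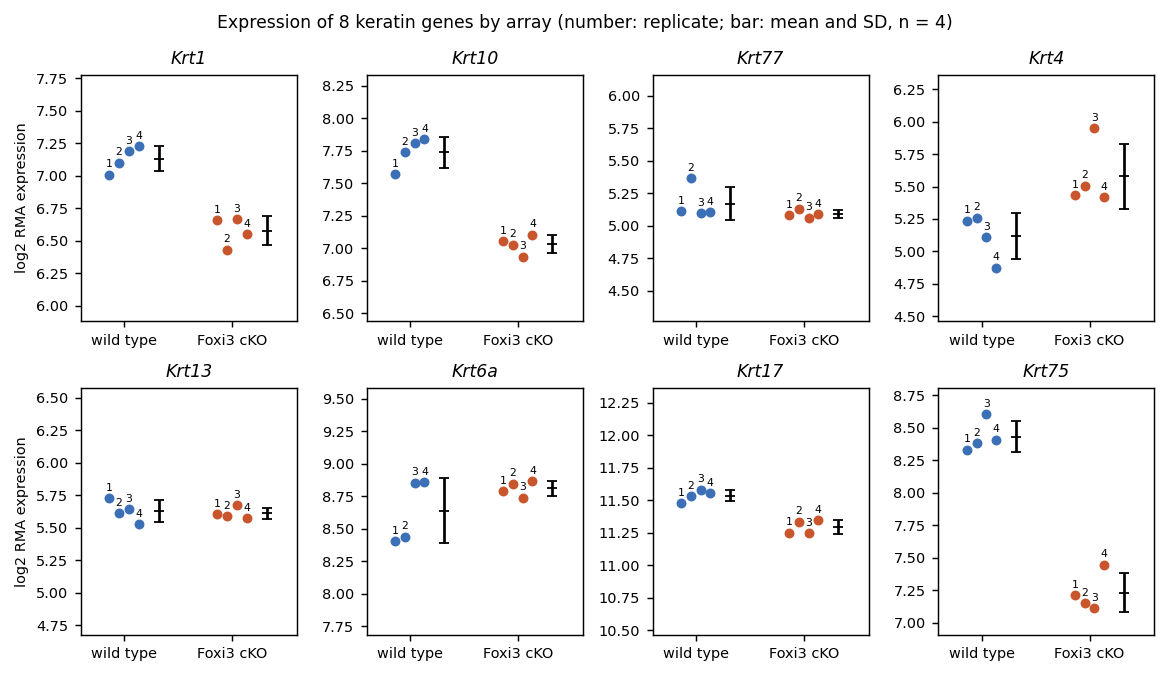
Log2 RMA expression (y axis, the same span in every panel but a different position) of the 8 keratin genes in each wild-type and Foxi3 cKO array (points, numbered by replicate), with the mean and SD (n = 4). All 4 cKO points lie below all 4 wild-type points for Krt1, Krt10, Krt17 and Krt75 and above them for Krt4, while the groups overlap for Krt77, Krt13 and Krt6a.

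Krt10 (ENSMUSG00000019761), the type I keratin of differentiating epidermal cells, had log2 expression values of 7.57, 7.74, 7.81 and 7.84 in wild-type replicates 1 to 4. In cKO replicates 1 to 4 it stood at 7.05, 7.03, 6.94 and 7.10. Each cKO array lay below every wild-type array, with a gap of 0.47 between the highest cKO and the lowest wild-type value. Wild-type arrays averaged 7.74 ± 0.12 (SD, n = 4) and cKO arrays 7.03 ± 0.071 (SD, n = 4). The cKO minus wild-type difference was −0.71 (SE 0.068, limma adjusted p = 0.00342, 95% interval −0.86 to −0.55). Signal in the cKO was thus 61.2% of that in wild type. With the replicate number as a block, a pairing the labels do not state, the limma adjusted p was 0.059.

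Krt1 (ENSMUSG00000046834), the type II partner of Krt10, had values of 7.01, 7.10, 7.19 and 7.23 in wild-type replicates 1 to 4. The cKO replicates 1 to 4 gave 6.66, 6.43, 6.67 and 6.55. Again no cKO array reached the lowest wild-type array, and the gap was 0.34. Wild-type arrays averaged 7.13 ± 0.097 (SD, n = 4) and cKO arrays 6.58 ± 0.11 (SD, n = 4). The cKO minus wild-type difference was −0.55 (SE 0.071, limma adjusted p = 0.0118, 95% interval −0.72 to −0.39). The call was lost without cKO replicate 4 (limma adjusted p = 0.051), without wild-type replicate 2 and cKO replicate 1 together (0.062) and with the replicate block (0.11), with differences between −0.59 and −0.54.

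Krt77 (ENSMUSG00000067594), a type II keratin of the epidermis whose gene stands next to Krt1 in the RefSeq gene order of chromosome 15, did not pass the test. Its values were 5.11, 5.36, 5.10 and 5.10 in wild-type replicates 1 to 4, and the cKO arrays ran from 5.06 to 5.13. Apart from wild-type replicate 2, the arrays of both genotypes lay within the same narrow band. The difference was −0.079 (SE 0.066, limma adjusted p = 0.78, 95% interval −0.23 to 0.072), and −0.015 without wild-type replicate 2. The interval leaves room for a fall to 85.3% of the wild-type signal or a rise to 105% of it. The table has no detection call, so it was not known whether a signal at this height, at the 47.4th percentile of mean signal over all genes, stood above background.

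Neither mucosal keratin was called. Krt4 (ENSMUSG00000059668), the type II keratin of mucosal suprabasal cells, had values of 5.24, 5.26, 5.11 and 4.88 in wild-type replicates 1 to 4. In cKO replicates 1 to 4 the values were 5.44, 5.51, 5.95 and 5.42, all above the wild-type arrays, with a gap of 0.16. The difference was 0.46 (SE 0.13, 95% interval 0.15 to 0.76, unadjusted), the largest positive one among the 8 keratins, but the limma adjusted p was 0.24 (unadjusted p = 0.00868). Without cKO replicate 3, its highest array, the difference was 0.33 (limma adjusted p = 0.32). The spread of Krt4 within groups, with SDs of 0.25 in the cKO and 0.18 in wild type, was larger than that of its partner.

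Krt13 (ENSMUSG00000044041), the type I partner of Krt4, had values of 5.73, 5.62, 5.65 and 5.53 in wild-type replicates 1 to 4. The cKO arrays gave 5.61, 5.59, 5.67 and 5.58, all within the wild-type range. Wild-type arrays averaged 5.63 ± 0.083 (SD, n = 4) and cKO arrays 5.61 ± 0.043 (SD, n = 4). The difference of −0.017 (SE 0.052, limma adjusted p = 0.94) had a 95% interval of −0.14 to 0.10, so a fall to below 91.0% or a rise to above 107% of the wild-type signal lay outside it. The sign of this difference turned with the scaling, to 0.017 with repeated quantile normalization, 0.018 with each array centred on its median and 0.011 with cyclic loess. Mean signal stood at the 55.2nd percentile over all genes for Krt13 and at the 51.0th for Krt4. Without a detection call, it was not known whether either signal stood above background, where a change in RNA would not show.

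Krt75 (ENSMUSG00000022986), the type II companion layer keratin, had values of 8.33, 8.38, 8.60 and 8.41 in wild-type replicates 1 to 4. In cKO replicates 1 to 4 it stood at 7.21, 7.15, 7.11 and 7.45. The gap between the groups, 0.89, was wider than the range within either of them, which was 0.34 in the cKO and 0.27 in wild type. Wild-type arrays averaged 8.43 ± 0.12 (SD, n = 4) and cKO arrays 7.23 ± 0.15 (SD, n = 4). The cKO minus wild-type difference was −1.20 (SE 0.088, limma adjusted p = 0.00109, 95% interval −1.40 to −0.999). The interval corresponds to a fall of 2.00-fold to 2.64-fold, leaving 43.5% of the wild-type signal at the fitted value. Over all 26165 genes this was the 7th largest measured fall, while that of Krt10 ranked 33rd, that of Krt1 88th and that of Krt17 1080th.

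Krt17 (ENSMUSG00000035557), the type I keratin of embryonic surface epithelium and hair follicles, was among the brightest genes on the arrays, at the 99.9th percentile of mean signal. Its values were 11.48, 11.53, 11.58 and 11.55 in wild-type replicates 1 to 4 and 11.25, 11.34, 11.25 and 11.35 in cKO replicates 1 to 4. The groups did not overlap, and the arrays within each lay close together, over ranges of 0.098 in the cKO and 0.103 in wild type. The difference was small, −0.24 (SE 0.045, 95% interval −0.34 to −0.14), and only just past the threshold (limma adjusted p = 0.047). The call was lost on leaving out any 1 array, with limma adjusted p between 0.068 and 0.16, and with each array centred on its median it was −0.21 (limma adjusted p = 0.37). The table carries no saturation flag, so whether a signal this bright understates the fall was not tested.

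Krt6a (ENSMUSG00000058354), a type II keratin of hair follicles and wounded skin, did not pass the test. Its wild-type values were 8.40 and 8.44 in replicates 1 and 2 and 8.86 and 8.86 in replicates 3 and 4. The cKO arrays, at 8.79, 8.85, 8.74 and 8.86, lay close to the upper wild-type pair. Wild-type arrays therefore spread over 0.45, against 0.13 in the cKO, and the difference was 0.17 (SE 0.11, limma adjusted p = 0.72, 95% interval −0.092 to 0.43). Without wild-type replicate 1 it was 0.092, and without wild-type replicate 2 it was 0.10. The gene next to it in the RefSeq order is Krt6b, a closely similar copy, and probes for either could bind RNA of both, so the value is uncertain as a measure of Krt6a alone.

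**Figure D2:**
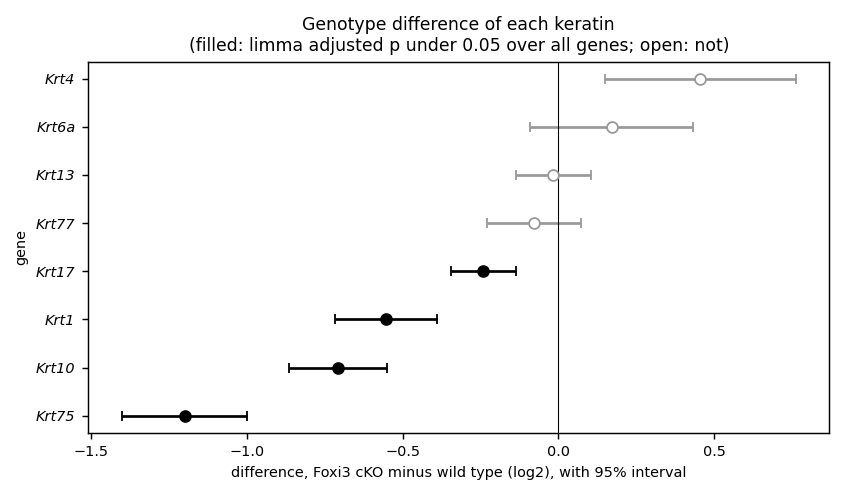
Difference in log2 expression, Foxi3 cKO minus wild type (x axis), of each keratin gene (y axis), with its 95% interval from limma, and filled points for genes called over all genes. Krt75, Krt10, Krt1 and Krt17 lie below 0, at −1.20, −0.71, −0.55 and −0.24, and the interval of Krt4 lies above 0 although the gene was not called after adjustment.

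The changes of the keratins differed in size within the same arrays. For each of the 28 pairs of genes, 1 gene was subtracted from the other on each array and the genotypes were compared with a two-sided exact permutation test over the 8 arrays. A shift common to a whole array cancels in this measure. In 21 pairs the result was the smallest p the design allows, 0.0286, which became 0.0381 after Benjamini-Hochberg adjustment over the 28 pairs. The pairs share genes and arrays and are not independent, and this test was added with the values known. Every pair with Krt75 was among the 21, and each of the 21 held a called keratin or Krt4. These are the genes whose arrays did not overlap between genotypes, so the count largely repeats the differences of single genes. The adjusted value is the same for all 21 pairs and depends on how many pairs reach the smallest p, so it does not rank them. The share of other gene pairs that reach this p was not computed.

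Within the companion layer, surface and stress group, Krt75 changed by −0.96 relative to Krt17 (SE 0.075, n = 4 in each group, adjusted exact p = 0.0381). Krt6a differed from Krt17 by 0.41 (SE 0.11, n = 4 in each group, adjusted exact p = 0.0381). The fall of Krt75 also exceeded that of Krt10, by 0.49 on the log2 scale (SE 0.070, n = 4 in each group, adjusted exact p = 0.0381). In the epidermal suprabasal group, the partners Krt1 and Krt10 fell by amounts that differed by 0.15 (SE 0.077, n = 4 in each group, adjusted exact p = 0.0696), which missed the threshold, and by 0.093 without cKO replicate 3. The neighbours Krt1 and Krt77 differed in their change by −0.47 (SE 0.11, n = 4 in each group, adjusted exact p = 0.0381). For the mucosal partners, Krt4 changed by 0.47 relative to Krt13 (SE 0.12, n = 4 in each group, adjusted exact p = 0.0381). The signals of Krt77, Krt4 and Krt13 were not known to stand above background, where a change in RNA would not show. The value for Krt1 and Krt77 may therefore hold little beyond the difference of Krt1 itself, −0.55.

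**Figure D3:**
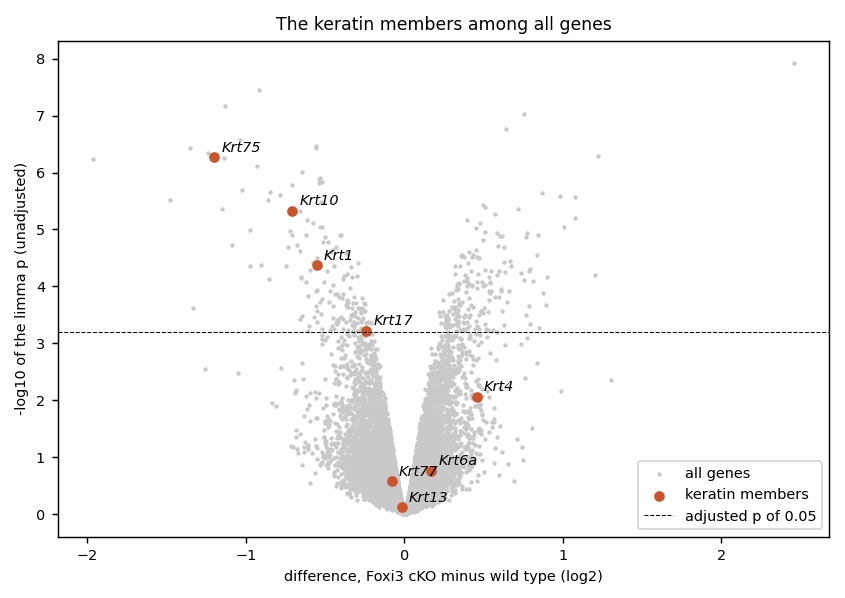
Difference in log2 expression, Foxi3 cKO minus wild type (x axis), against −log10 of the unadjusted limma p (y axis) for all 26165 genes (grey) and the 8 keratins (orange), with the p that corresponds to an adjusted p of 0.05 as a dashed line. Krt75, Krt10 and Krt1 lie well above the line on the left, Krt17 lies at it, and Krt4 lies below it on the right.

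Among arrays of the same genotype the keratins also moved in part together. Wild-type replicate 1 had the lowest wild-type value of Krt1, Krt10, Krt17, Krt75 and Krt6a, 5 of the 8 genes, and the highest of Krt13. Among the cKO arrays, replicate 4 had the highest value of Krt10, Krt17, Krt75 and Krt6a. In cKO replicate 3 these same genes and Krt77 were at their lowest cKO value, while Krt1, Krt4 and Krt13 were at their highest. The partners Krt1 and Krt10 thus stood at opposite ends on that array. How often other genes had their extremes on these arrays was not counted. After the group means were removed, Krt10 correlated over the 8 arrays with Krt6a at r = 0.81, with Krt17 at 0.76, with Krt75 at 0.68 and with Krt1 at 0.42. Krt10 correlated with Krt13 at −0.87 and with Krt4 at −0.74, while Krt4 and Krt13 correlated with each other at 0.76. These values rest on 8 arrays that share their normalization and are given as a description. Over the 6 pairs of called keratins, r ran from 0.88 to 0.98 with the genotype difference included and from −0.13 to 0.76 without it.

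By overall likeness across the 8 arrays, the gene closest to Krt75 among the 26157 other genes was ENSMUSG00000020467 (r = 0.99). Its expression was 6.87 ± 0.055 (SD, n = 4) in wild-type arrays and 6.36 ± 0.028 (SD, n = 4) in cKO arrays. The gene closest to Krt10 was ENSMUSG00000045319 (r = 0.99), with 7.30 ± 0.14 (SD, n = 4) in wild-type arrays and 6.73 ± 0.052 (SD, n = 4) in cKO arrays. The choice by likeness over all 8 arrays includes the genotype difference and so fixes that both were lower in the cKO. The identifiers are given without a symbol.

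The sequence before the transcription start is shown for Krt75 and Krt10, which fell together, and for Krt77 and Krt13, which were not called. RefSeq promoter windows (GRCm38.p6) were found for these 4 of the 8 genes, Krt13 having a pair of starts, and the 250 bases before each start are printed 5′ to 3′ on the minus strand. Capitals mark matches, on either strand, to the TATA box (TATAAA), the TATA-like CATAAA, the forkhead core TGTTTA, which was searched because Foxi3 is a forkhead factor, and the AP-1 motif (TGANTCA).
Krt75, chr15:101573905-101574154: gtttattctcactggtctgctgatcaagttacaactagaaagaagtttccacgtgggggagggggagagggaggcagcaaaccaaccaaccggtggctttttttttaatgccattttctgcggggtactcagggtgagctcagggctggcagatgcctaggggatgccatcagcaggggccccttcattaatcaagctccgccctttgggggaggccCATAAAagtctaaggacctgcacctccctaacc
Krt10, chr11:99389365-99389614: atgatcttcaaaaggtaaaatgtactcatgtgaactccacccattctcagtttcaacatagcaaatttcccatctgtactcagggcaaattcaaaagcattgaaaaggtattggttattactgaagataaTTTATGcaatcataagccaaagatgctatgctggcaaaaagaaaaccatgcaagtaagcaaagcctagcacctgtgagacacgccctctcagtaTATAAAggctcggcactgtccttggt
Krt77, chr15:101869706-101869955: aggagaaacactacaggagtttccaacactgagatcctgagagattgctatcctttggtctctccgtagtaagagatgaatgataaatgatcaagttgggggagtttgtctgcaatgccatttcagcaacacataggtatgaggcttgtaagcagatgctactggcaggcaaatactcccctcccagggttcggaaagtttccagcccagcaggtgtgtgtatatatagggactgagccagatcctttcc
Krt13, upstream start, chr11:100121567-100121816: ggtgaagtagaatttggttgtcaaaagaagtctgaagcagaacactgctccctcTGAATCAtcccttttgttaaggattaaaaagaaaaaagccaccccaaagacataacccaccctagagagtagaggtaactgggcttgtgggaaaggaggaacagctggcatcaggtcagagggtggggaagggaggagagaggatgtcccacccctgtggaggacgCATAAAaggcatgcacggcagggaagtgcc
Krt13, downstream start, chr11:100120578-100120827: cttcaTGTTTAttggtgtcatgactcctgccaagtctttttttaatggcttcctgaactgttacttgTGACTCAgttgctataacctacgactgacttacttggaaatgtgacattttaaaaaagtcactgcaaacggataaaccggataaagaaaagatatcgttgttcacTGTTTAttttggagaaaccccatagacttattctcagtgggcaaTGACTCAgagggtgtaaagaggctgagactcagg

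In Krt75 the only match was CATAAA, which begins 33 bases before the start, the position where a TATA element is usually found. Krt10 had TATAAA beginning 26 bases before the start, and a reversed CATAAA further out. Krt77 had no match, but its window holds the letters tatatata near the start, which the motifs searched do not cover. A lack of a TATA element in Krt77 can therefore not be read from this search. The upstream start of Krt13 had CATAAA beginning 30 bases before it and an AP-1 match. The forkhead core occurred in the window of the downstream Krt13 start, where it began 245 and 78 bases before the start, beside AP-1 matches that began 183 and 34 bases before it, and the motifs did not overlap. Among all 32851 RefSeq windows of this length, 12.03% held TGTTTA, 12.37% TATAAA, 10.76% CATAAA and 6.75% the AP-1 motif. The windows of Krt75 and Krt10, which fell, held no complete TGTTTA, nor did the window of Krt77 or the upstream window of Krt13. The Krt75 window opens with gttta, the forkhead core without its leading t, and the base before the window was not searched. A lack of the core at that edge of Krt75 can therefore not be read from this search. With 12.03% of all windows holding TGTTTA, most lacked it, so its lack does not set Krt75 and Krt10 apart.

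**Figure D4:**
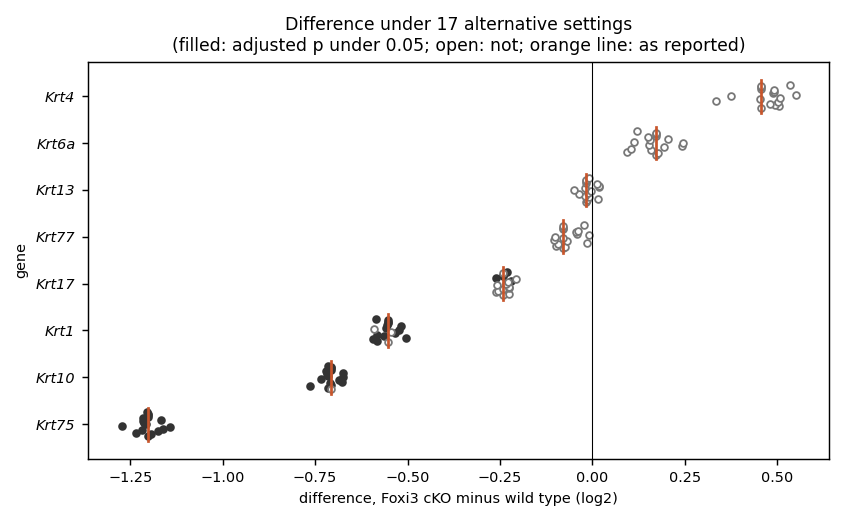
Difference in log2 expression, Foxi3 cKO minus wild type (x axis), of each keratin gene (y axis) under 17 alternative settings (points, filled where the limma or ordinary linear model adjusted p was under 0.05) and as reported (orange line). Krt75 stayed between −1.27 and −1.14 with all points filled, Krt10 between −0.76 and −0.67 with 16 filled, Krt1 between −0.59 and −0.51 with 14 filled and Krt17 between −0.26 and −0.21 with 5 filled.

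Over all genes, the arrays correlated at 0.989 to 0.996 with each other. Median expression was 5.44 on wild-type replicate 2 and 5.25 to 5.30 on the other 7 arrays, and wild-type replicate 2 also received the lowest array weight, 0.20. Without it Krt75, Krt10 and Krt1 were still called lower, and Krt17 was not, at a limma adjusted p of 0.068. With array weights all 4 were called. The same-numbered samples of the genotypes did not deviate together, so the replicate numbers were not taken as pairs. With the number as a block, 1 of the 8 keratins, Krt75, was called (limma adjusted p = 0.049).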

How the data were processed

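Log2 expression values of 8 Affymetrix arrays came from 1 deposited table, which the submitters' processing notes credit to RMA. RMA corrects background, equalises the probe distributions of the arrays and summarises probes per gene, and it narrows large fold changes. Its version, the array model and the genome build are not given in the sources used here. The number of arrays limits the precision.

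The deposited identifiers come without symbols, and the Ensembl column of the gene table used here was empty. Only the 8 keratins could be named, through the list that defines them, and no table used here could check its pairing of identifiers with symbols. Foxi3 itself, the listed cell type markers and other keratins were not analysed here, and the deletion and the tissue label went unchecked. The members and lists were chosen with earlier results of these data known. All 8 members are named, and for the 2 with the largest SD over the arrays, the gene most like each is given by identifier.

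The test was limma 3.58.1 under R 4.3.3, with a linear model holding genotype alone and the default eBayes prior, two-sided and with no filter on the deposited values. It was tested on simulated data, drawn independently for each gene and array from normal distributions with known shifts added. These data had no correlation between genes and no array-wide effects, so they do not cover an array such as wild-type replicate 2. P-values were adjusted over all 26165 genes, and each sets a genotype difference against the spread between these pools. Deviations from the group means correlated at −0.046, −0.090, −0.037 and 0.020 between samples numbered 1 to 4, so the numbers were not taken to pair the samples. The labels state no pairing, and these correlations cannot exclude that same-numbered samples were handled together. Alternatives were the replicate block, leaving out arrays, other normalizations, a filter on the dimmest 40% of genes, other variance models, array weights and an adjusted p under 0.1.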

Additional observations from a re-analysis of the deposited data

Results flagged for a closer look

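The highest and the lowest array of each keratin in each genotype were checked for a gap to the nearest of the other arrays that made up over 0.829 of the group's range. Chance flags about 1 in 20 groups, and 2 of 16 checks stood out. Krt77 in wild-type replicate 2 was 5.36, while the remaining wild-type arrays lay between 5.10 and 5.11. That array also had the highest median over all genes, 5.44. The Krt77 difference, −0.079 as reported, was −0.041 with repeated quantile normalization, −0.044 with median centring and −0.039 with cyclic loess. The part of the array's scaling in its Krt77 value was not tested further. Krt4 in cKO replicate 3 was 5.95, while the remaining cKO arrays lay between 5.42 and 5.51.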

How the results depend on the processing

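Differences of Krt75, Krt10, Krt1, Krt17, Krt4, Krt6a and Krt77 kept their sign under all 17 alternatives each, and Krt4, Krt6a, Krt13 and Krt77 were never called. The replicate block, the filter on dim genes and the other variance models leave the differences as they are, so no sign could change there. Krt13 turned positive without wild-type replicate 1 (0.016), with repeated quantile normalization (0.017), median centring (0.018) and cyclic loess (0.011), and the cause was not tested. In the fit with the replicate block, which leaves fewer degrees of freedom, Krt10 (−0.71, limma adjusted p = 0.059), Krt1 (−0.55, 0.11) and Krt17 (−0.24, 0.24) lost their calls, leaving 1 of 8 keratins and 18 genes in all. Leaving out 1 array in turn gave −0.59 to −0.51 for Krt1 and −0.26 to −0.23 for Krt17, −0.051 to 0.016 for Krt13, 2 to 3 called keratins and 119 to 303 called genes. Without both wild-type replicate 2 and cKO replicate 1, with fewer arrays, Krt1 (−0.59, limma adjusted p = 0.062) and Krt17 (−0.23, 0.14) were not called, so 2 keratins and 106 genes were. Krt17 also lost its call with median centring (−0.21, limma adjusted p = 0.37) and without shared variance (−0.24, adjusted p = 0.054). In place of 342, the genes called numbered 196 with median centring (131 higher, 65 lower, against 180 and 162), 181 without shared variance and 575 with array weights. The median of the keratins stayed between −0.18 and −0.12. The 6 differences in change between named pairs kept their sign and moved by less than the mean of the SDs within the genotypes under 15 alternatives each, all chosen after seeing the data. The replicate block, the filter on dim genes and median centring could not move these values. Without detection calls, dim signals could not be told from background.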
